A study of Mus musculus with 19 samples.

Results

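The genes described here are 7 regulators and products of the Sertoli cell, the supporting cell of the testis, read in adult mouse ovaries that lack the hedgehog ligand Dhh, Ihh or both. They are the transcription factors Sox9, Sox8, Dmrt1, Gata4 and Nr0b1, and the Sertoli products Ptgds and Cldn11. They were taken by name, 7 of 18193 genes with a probe set of their own, and every probe set annotated to a member alone was kept, low ones included: 11 of 34945. They were chosen by their function together with a measured value of these data, the higher Sox9 signal of ovaries lacking both ligands, so differences of any member in that comparison are given as values with no test. Whole-ovary RNA of mice aged 2 months was hybridised to 19 Affymetrix arrays: 3 labelled Ihh_Dhh_dKO, without Dhh and Ihh, 4 labelled Dhh_KO, 4 labelled Ihh_KO, and 8 controls labelled Ihh_Dhh_dhet, heterozygous for both genes. The labels call the deletion ovary specific for all samples, and a Cre driver was not given in the sources used here. Nothing in the labels says whether arrays of a group came from separate animals, so the spread between arrays may be partly technical.

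The gonad of the mouse embryo can become a testis or an ovary. In the XY gonad Sry and NR5A1 switch on Sox9, which drives Sertoli differentiation together with its relative Sox8 and induces Ptgds, the enzyme that makes prostaglandin D2. Dmrt1 keeps Sertoli cells of the adult testis from turning into granulosa cells, and Foxl2 keeps granulosa cells of the adult ovary from taking on Sertoli features. Gata4 is needed in the early gonad of both sexes and stays active in granulosa and theca cells. Nr0b1 encodes DAX1, an orphan receptor that restrains NR5A1, and Cldn11 encodes a claudin of the Sertoli tight junction. Dhh is itself a Sertoli product in the testis, while granulosa cells make Dhh and Ihh in the ovary.

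The arrays form 2 hybridization sets. The 3'/5' signal ratio of the spiked BioC control was 0.987 to 1.06 on the first, which holds the Ihh_Dhh_dKO arrays and controls 1 to 4, and 0.685 to 0.781 on the second, with Dhh_KO, Ihh_KO and controls 5 to 8. Each mutant was set against the controls of its own set, and levels are not compared between sets. Controls 1 to 4 appear to share their source with controls 5 to 8: deviations from the group mean, across probe sets, correlated at 0.276 to 0.513 for 1 with 5, 2 with 6, 3 with 7 and 4 with 8, and at -0.406 to 0.112 for other matches. Dhh, read by its brighter probe set, was 3.85 to 14.2 in Ihh_Dhh_dKO, against 606 to 1371 on controls 1 to 4. In Dhh_KO it was 5.14 to 25.4, against 621 to 1085 on controls 5 to 8. Ihh was 36.3 to 52.7 in Ihh_Dhh_dKO, against 139 to 425 on controls 1 to 4. In Dhh_KO it was 108 to 168, against 160 to 238 on controls 5 to 8, and only Dhh_KO 3 reached into that range. By these probe sets the array labelled Ihh_KO 4 goes against its label, with Dhh at 2.96 and Ihh at 108. Ihh_KO 1 to 3 read 527 to 709 and 12.5 to 43.5. The dimmer Dhh probe set does not set this array apart. There it read 46.9, against 41.9 to 68.1 on Ihh_KO 1 to 3, 7.84 to 63.5 in Dhh_KO and 70.4 to 104 on controls 5 to 8. Tests on Ihh_KO are given with and without the array labelled Ihh_KO 4. Ovarian markers were high on every array, with the granulosa factor Foxl2 at 3575 to 5143 and the oocyte coat gene Zp3 at 1130 to 4264.

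The RefSeq promoter table of assembly GRCm38.p6 (250 bases before to 50 after the start of a gene) lists 4 members: Sox8, Cldn11, Ptgds and Nr0b1. Both strands were searched for the SOX core ACAAT, the SOX and TCF core ACAAAG, the GATA forms AGATAA and TGATAA, and the nuclear receptor core AGGTCA that NR5A1 can also bind. AGGTCA was added after the sequences were read. The windows of Sox8 and Cldn11 held no match. The windows with a match are shown because Ptgds is a known SOX9 target and Nr0b1 a known NR5A1 target, with the matches in capitals.
Ptgds: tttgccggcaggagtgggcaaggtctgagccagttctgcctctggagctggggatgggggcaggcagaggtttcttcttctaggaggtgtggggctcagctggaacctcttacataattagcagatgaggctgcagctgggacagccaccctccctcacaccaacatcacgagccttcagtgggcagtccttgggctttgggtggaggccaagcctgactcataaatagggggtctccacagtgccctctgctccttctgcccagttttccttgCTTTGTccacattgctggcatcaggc
Nr0b1: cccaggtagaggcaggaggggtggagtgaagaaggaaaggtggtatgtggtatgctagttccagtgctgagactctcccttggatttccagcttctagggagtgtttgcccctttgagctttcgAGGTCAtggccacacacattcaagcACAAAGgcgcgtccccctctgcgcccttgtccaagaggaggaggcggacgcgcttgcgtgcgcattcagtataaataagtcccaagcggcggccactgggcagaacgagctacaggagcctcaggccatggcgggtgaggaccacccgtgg
The Ptgds window lies at chr2:25469700-25469999 on the minus strand and that of Nr0b1 at chrX:86191525-86191824 on the plus strand. In Ptgds the match was ACAAAG on the other strand (bases 275 to 280), and in Nr0b1 it was AGGTCA (bases 125 to 130) and ACAAAG (bases 150 to 155). Of 32851 promoter windows of 300 bases, 18.7% held ACAAAG, 16.3% AGGTCA, 31% ACAAT, 11.2% AGATAA and 9.05% TGATAA. None of these motifs is rare at this length.

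The members span the range from background to well measured. Ranked by mean level among all probe sets, those of Gata4 stood at percentiles 91.4 and 85.7, Cldn11 at 73.6 and Ptgds at 71.8 and 49.7. Nr0b1 stood at 58, Sox9 at 50.5, 37.4 and 8.97, Sox8 at 45.8 and Dmrt1 at 3.54. These ranks describe probe sets, and probe sets differ in how brightly they read a transcript. A low signal is weak evidence of a transcript on these arrays. The probe set of Sry, a gene of the Y chromosome, read 78.8 to 122 on the Ihh_Dhh_dKO arrays of these ovaries, against 16.4 to 82.1 on controls 1 to 4. On the second set it read 199.8 to 316 in Dhh_KO and 108 to 213 in Ihh_KO, against 236 to 455 on controls 5 to 8.

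Sox9 was higher on Ihh_Dhh_dKO arrays 1 and 3 and not on array 2. Its brightest probe set, 1451538_at, read 416, 169 and 386 on Ihh_Dhh_dKO 1 to 3, against 117, 166, 146 and 170.1 on controls 1 to 4. Array 2 lay within the controls, so the groups overlapped. The means were 324 ± 135 (SD, n = 3) in Ihh_Dhh_dKO and 149.8 ± 24.3 (SD, n = 4) in controls, a log2 difference of 0.99 on the scale used throughout, log2 of the signal plus 7.02. A second probe set made from the same transcript, 1424950_at, read 102, 55.0 and 88.0 in Ihh_Dhh_dKO, against 23.3, 62.1, 55.0 and 41.6 on controls 1 to 4 (log2 difference 0.78). Here too array 2 was the lowest of the mutants and inside the control range. The dimmest, 1433889_at, read 12.6, 11.4 and 11.4 against 8.04, 10.7, 9.60 and 5.45 on controls 1 to 4, all near the 10th percentile of the arrays. It was the only one of the 11 member probe sets whose Ihh_Dhh_dKO arrays all lay above the controls, a pattern found in 6.87% of all probe sets in that comparison. In whole-ovary RNA, fewer cells of a type and less RNA per cell cannot be told apart, and the same holds for more.

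**Figure D1:**
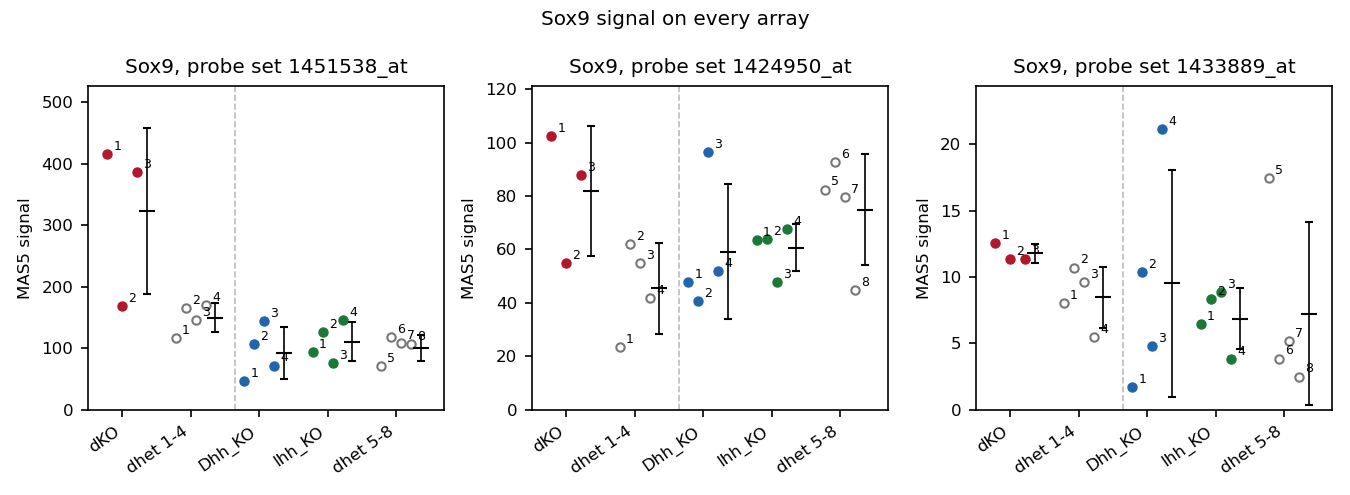
MAS5 signal (linear axis from 0) of the 3 Sox9 probe sets on each array, numbered by replicate, with group mean and SD as bars; dKO is Ihh_Dhh_dKO, dhet is Ihh_Dhh_dhet, and the dashed line parts the hybridization sets. For 1451538_at, dKO arrays 1 and 3 (416 and 386) lie above the other arrays and dKO array 2 (169) lies among controls 1 to 4.

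Several genes of oviduct epithelium, a tissue that touches the ovary and can be carried along in dissection, were brightest on the same arrays, Ihh_Dhh_dKO 1 and 3. Ovgp1, the oviduct glycoprotein, read 3730, 53.6 and 4679 on Ihh_Dhh_dKO 1 to 3, against 409, 26.0, 40.4 and 38.2 on controls 1 to 4. It was high on the arrays where Sox9 was high, and on array 2 it stayed under control 1. Not every gene of the list followed this order: Krt7 read 339, 449 and 353 and Epcam 1029, 1111 and 1789 on Ihh_Dhh_dKO 1 to 3, and on array 1 Prom1 (240) lay under control 1 (463) and Esrp1 (304) under control 4 (400.3). The summed signal of the 16 measured oviduct and Mullerian genes was 10598, 3479 and 17907.5 on Ihh_Dhh_dKO 1 to 3, against 1718 to 3178 on controls 1 to 4. All 16 had a higher mean level in Ihh_Dhh_dKO, as did 56.3% of all probe sets. The median log2 difference was 1.31, against 0.04 over all probe sets. Of the 16, 6 rose (limma adjusted p under 0.05) and 0 fell, where 0.727% of all probe sets were called higher. These were Plet1 (log2 difference 3.60, adjusted p = 0.011), Wfdc2 (2.87, adjusted p = 0.0095), the adhesion molecules Cdh1 (1.87, adjusted p = 0.0014) and Epcam (1.31, adjusted p = 0.013), and the claudins Cldn3 (1.82, adjusted p = 0.019) and Cldn4 (1.31, adjusted p = 0.032). Without Ihh_Dhh_dKO 3 only Cdh1 was called, and without Ihh_Dhh_dKO 2 there were 11 calls, Ovgp1 and the cilia regulator Foxj1 among them. Pax8, a defining factor of the oviduct lining, was near the floor of the arrays, at 10.2 to 32.7 in Ihh_Dhh_dKO and 1.12 to 16.0 on controls 1 to 4.

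The keratins Krt8 and Krt18 lay above every control on all 3 Ihh_Dhh_dKO arrays, array 2 included, while Krt19 (722, 1174 and 2147) on array 1 lay inside the control range of 530.1 to 767. Krt18 read 1619, 1495 and 2649 in Ihh_Dhh_dKO, against 870.0, 733, 768 and 507 on controls 1 to 4. Of the 9 genes of the ovarian surface epithelium list all had a higher mean in Ihh_Dhh_dKO (median log2 difference 0.71), as did 56.3% of all probe sets. Of the 9, 2 rose, Krt8 (1.02, limma adjusted p = 0.0054) and Krt18 (1.39, limma adjusted p = 0.0024), where 0.727% of all probe sets were called higher. The brightest of the list besides Krt8 were Upk3b (2181.6 to 2358 in Ihh_Dhh_dKO, against 1425 to 2637 on controls 1 to 4) and Gpm6a (1027 to 1328 against 770.4 to 907). The summed surface epithelium signal was 8131, 9348 and 11677 in Ihh_Dhh_dKO, against 4844 to 6651 on controls 1 to 4. On array 2 Sox9 was at the control level while these 3 keratins lay above all 4 controls. Without Ihh_Dhh_dKO 3 only Krt18 of the list was called, and without Ihh_Dhh_dKO 1 there were 4 calls. Cartilage is another tissue with Sox9, where it drives matrix genes. The summed signal of its 9 genes was 299 to 533 in Ihh_Dhh_dKO, against 325 to 663 on controls 1 to 4, 0 of 9 were called (limma) and the median log2 difference was -0.43. Its brightest genes were Comp (59.3 to 235 in Ihh_Dhh_dKO, against 82.5 to 306), Col9a2 (119.9 to 154 against 59.8 to 171) and Acan (22.4 to 41.2 against 18.3 to 104). The part of oviduct or other epithelial tissue in the Sox9 reading was not tested.

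**Figure D2:**
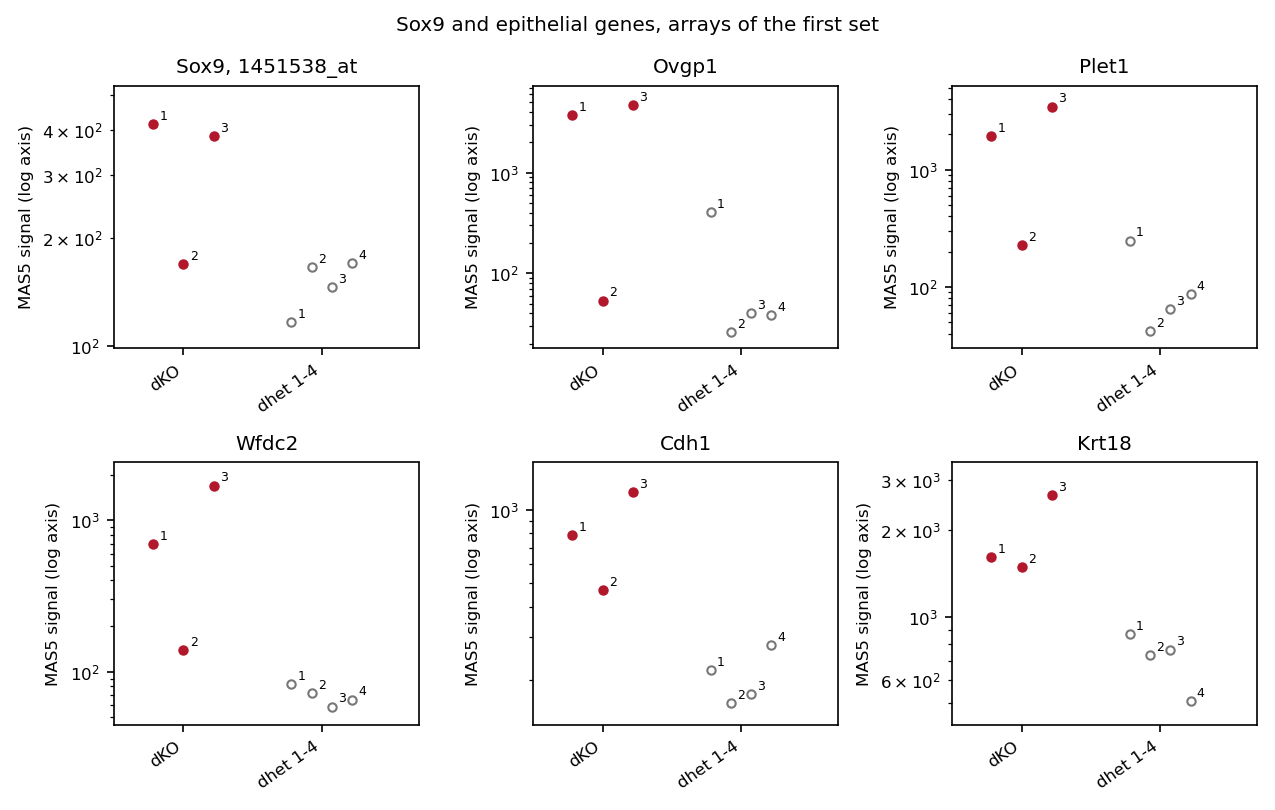
MAS5 signal (log axis) of Sox9 and 5 epithelial genes on the arrays of the first hybridization set, numbered by replicate; filled points are Ihh_Dhh_dKO (dKO) and open points controls 1 to 4 (dhet). Among the dKO arrays, array 2 is lowest for both Sox9 (169) and Ovgp1 (53.6), while Krt18 is above every control on all 3 dKO arrays.

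Neither single knockout had a Sox9 level apart from its controls. Probe set 1451538_at read 46.6, 107, 144 and 71.7 in Dhh_KO and 93.8, 126, 76.0 and 145 in Ihh_KO, against 70.2, 118, 108 and 106 on controls 5 to 8. The 3 groups overlapped throughout. The log2 difference was -0.20 in Dhh_KO (95% interval -0.87 to 0.47, limma adjusted p = 0.86) and 0.11 in Ihh_KO (-0.56 to 0.77, adjusted p = 0.90). Without the array labelled Ihh_KO 4 the difference in Ihh_KO was -0.03 (-0.75 to 0.69, adjusted p = 0.97). These intervals leave room for changes in either direction. The probe set 1424950_at stood at -0.33 in Dhh_KO (adjusted p = 0.73) and -0.24 in Ihh_KO (adjusted p = 0.75). Ovgp1 was 23.3 to 46.4 in Dhh_KO and 28.8 to 270.1 in Ihh_KO, against 39.5 to 560.3 on controls 5 to 8. Of the 16 oviduct genes 0 were called in either (limma), where 0% of all probe sets were in Dhh_KO and 0.0687% in Ihh_KO. Control 5, the highest for Ovgp1, was the lowest of controls 5 to 8 for Sox9 by 1451538_at. The other Sox9 probe sets differed. By 1424950_at control 5 read 82.4, under control 6 (92.6) and above controls 7 and 8 (79.5 and 44.8). By 1433889_at, near background, it was the highest (17.5).

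Sox8, which can stand in for part of Sox9's work in the testis, was low and varied as much among controls as among mutants. It read 119, 89.0 and 149 in Ihh_Dhh_dKO, against 68.3, 53.0, 86.9 and 136 on controls 1 to 4 (log2 difference 0.49). The groups overlapped, with control 4 above 2 of the 3 mutant arrays. In the second set Sox8 read 72.0, 92.8, 89.9 and 114 in Dhh_KO and 115, 90.7, 59.7 and 103 in Ihh_KO, against 124, 64.5, 125 and 199 on controls 5 to 8. The differences were -0.36 (95% interval -1.02 to 0.29, limma adjusted p = 0.71) and -0.39 (-1.04 to 0.27, adjusted p = 0.58). All Dhh_KO arrays and 3 of 4 Ihh_KO arrays lay inside the range of controls 5 to 8, whose highest array was 3.09 times the lowest. Ihh_KO 3 lay just under it.

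Dmrt1 read near background on every array. It read 2.20 to 3.46 in Ihh_Dhh_dKO and 2.17 to 5.54 on controls 1 to 4. In Dhh_KO it read 3.56 to 8.24 and in Ihh_KO 1.40 to 7.36, against 1.03 to 12.3 on controls 5 to 8. All these signals lie under the 10th percentile of the arrays (7.02) or within a few units of it, so the differences of this Sertoli maintenance factor between groups are not read as a direction.

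Ptgds, the SOX9 target among the members, varied widely among controls. Its brighter probe set, 1423859_a_at, read 639, 1478 and 1161 in Ihh_Dhh_dKO, against 921, 1146, 669 and 152 on controls 1 to 4 (log2 difference 0.84). The order of the mutant arrays was not that of Sox9: Ihh_Dhh_dKO 1 had the highest Sox9 and the lowest Ptgds. In the second set it read 293, 381, 360.0 and 284 in Dhh_KO and 649, 651, 835 and 348 in Ihh_KO, against 591, 433, 246 and 115 on controls 5 to 8. Ihh_KO 1 to 3 lay above all controls and the array labelled Ihh_KO 4 among them. The difference was 0.16 in Dhh_KO (95% interval -0.92 to 1.23, limma adjusted p = 0.94) and 1.00 in Ihh_KO (-0.08 to 2.08, adjusted p = 0.36), or 1.25 without the array labelled Ihh_KO 4 (0.10 to 2.40, adjusted p = 0.26). These values moved with the controls used: without control 8 the Ihh_KO difference was 0.56 (adjusted p = 0.60), and without control 4 the Ihh_Dhh_dKO difference was 0.21. Against all 8 controls the Ihh_KO difference was 0.52 (adjusted p = 0.69), but that run mixes the hybridization sets. By this probe set controls 5 to 8 stood at -0.96 from controls 1 to 4.

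The dimmer Ptgds probe set, 1423860_at, gave the lowest p of any member in a test. It read 191, 176, 151 and 108 in Ihh_KO, against 70.4, 85.4, 58.0 and 8.65 on controls 5 to 8. Every Ihh_KO array lay above every control, as did 1.55% of all probe sets in that comparison. The log2 difference was 1.63 (SE 0.48, 95% interval 0.63 to 2.62, unadjusted p = 0.00295) and did not pass over all probe sets (limma adjusted p = 0.13; 0.11 without the array labelled Ihh_KO 4, where it was 1.78). Without control 8 it was 1.05 (adjusted p = 0.15). Against all 8 controls it was 0.69 (adjusted p = 0.63), in a run that mixes the hybridization sets. Dhh_KO arrays read 134, 95.4, 81.6 and 56.0 (0.87, adjusted p = 0.53), and the direct difference of Ihh_KO from Dhh_KO was 0.76 (adjusted p = 0.60). In the first set it read 175, 479 and 272 in Ihh_Dhh_dKO, against 235, 325, 159 and 91.5 on controls 1 to 4 (0.61). Control 8 and control 4, which appear to share a source, were the lowest controls of their sets for both probe sets. The levels of this probe set on controls 5 to 8 averaged 55.6, against 203 on controls 1 to 4, a log2 difference of -1.87 between the sets, which is why each mutant is read only within its own.

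Cldn11, the claudin that seals the Sertoli barrier in the testis, read 657, 242 and 232 in Ihh_Dhh_dKO, against 811, 470.5, 426 and 322 on controls 1 to 4 (log2 difference -0.51). Arrays 2 and 3 lay under all 4 controls and array 1 above all but control 1. In the second set Cldn11 read 744, 635, 623 and 365 in Dhh_KO and 533, 679, 1471 and 667 in Ihh_KO, against 900.4, 645, 506 and 479 on controls 5 to 8. Ihh_KO 3 lay above the control range and Dhh_KO 4 below it. The differences were -0.10 in Dhh_KO (95% interval -0.84 to 0.65, limma adjusted p = 0.95) and 0.33 in Ihh_KO (-0.42 to 1.08, adjusted p = 0.70). The controls held their order across the sets: 1, 2, 3, 4 from high to low in the first, and 5, 6, 7, 8 in the second. Myelinating glia also make Cldn11. The summed signal of 6 measured glial genes was 1565 to 2012 in Ihh_Dhh_dKO, against 1195 to 2613 on controls 1 to 4. It was 1240.1 to 1641 in Dhh_KO and 1348 to 1829.7 in Ihh_KO, against 1169.8 to 1948 on controls 5 to 8. Of the 6 glial genes 0 were called in any comparison (limma), where 0% to 1.42% of all probe sets were. The brightest glial genes were Cnp (683 to 1315 over the 19 arrays), Mbp (152 to 675) and S100b (9.59 to 811), which other cells also make. The glial factor Sox10 read 2.97 to 106, the defining myelin genes Mag (1.27 to 25.2) and Mog (2.91 to 57.1) were low, and the part of glia in the Cldn11 readings was not tested.

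Gata4 is the best measured member and a regulator of steroidogenic genes in granulosa and theca cells. Probe set 1418863_at read 2721, 2229 and 2184 in Ihh_Dhh_dKO, against 3473, 2251, 2074 and 2962 on controls 1 to 4 (log2 difference -0.15). It read 1515, 1503, 1585 and 1506 in Dhh_KO and 1521, 1193, 1444 and 1758 in Ihh_KO, against 2532, 1639, 1440.3 and 2202 on controls 5 to 8. The control groups covered a wider range than any mutant group. The second probe set, 1418864_at, read 1157, 941, 1175 and 1178 in Dhh_KO and 996, 930.0, 747 and 1215 in Ihh_KO, against 1642, 1242, 1187 and 1654 on controls 5 to 8. All 4 Dhh_KO arrays lay under the controls, as did 3.48% of all probe sets in that comparison, and in Ihh_KO only the array labelled Ihh_KO 4 reached into the control range.

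Gata4 lay lower in both single knockouts by both probe sets without passing the test. Both knockouts were set against the same controls 5 to 8, and both probe sets were read on the same arrays, so these are not separate readings. Directly, Ihh_KO differed from Dhh_KO by -0.06 by 1418863_at (limma adjusted p = 0.93) and -0.21 by 1418864_at (limma adjusted p = 0.74). In Ihh_KO the log2 difference was -0.38 by 1418863_at (95% interval -0.74 to -0.02, unadjusted p = 0.041, limma adjusted p = 0.30) and -0.56 by 1418864_at (-0.99 to -0.13, unadjusted p = 0.014, adjusted p = 0.21). Without the array labelled Ihh_KO 4 these were -0.46 (adjusted p = 0.22) and -0.67 (adjusted p = 0.15). In Dhh_KO they were -0.32 (-0.68 to 0.04, adjusted p = 0.52) and -0.35 (-0.78 to 0.08, adjusted p = 0.56). Without control 5, the highest by 1418863_at, that probe set stood at -0.24 in Ihh_KO (adjusted p = 0.63) and -0.18 in Dhh_KO (adjusted p = 0.86). The 3'/5' ratio of Gapdh, a gauge of RNA integrity, was 2.08 to 2.79 in Dhh_KO and 1.90 to 2.37 in Ihh_KO, against 1.89 to 2.01 on controls 5 to 8, and its part in these readings was not tested. In Ihh_Dhh_dKO, with Gapdh ratios of 1.68 to 1.78 against 1.69 to 1.80, 1418864_at read 1461, 1213 and 1002, against 1986, 891, 1065 and 1540 on controls 1 to 4 (log2 difference -0.11).

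Nr0b1 varied about as widely within groups as between them. It read 336, 274 and 167 in Ihh_Dhh_dKO, against 228, 103, 155 and 299 on controls 1 to 4 (log2 difference 0.44). In the second set it read 448, 154, 108 and 386 in Dhh_KO and 137, 162, 388 and 196 in Ihh_KO, against 272, 98.4, 137 and 269.9 on controls 5 to 8. The groups overlapped in both sets. The differences were 0.37 in Dhh_KO (95% interval -0.58 to 1.32, limma adjusted p = 0.81) and 0.18 in Ihh_KO (-0.77 to 1.13, adjusted p = 0.88). The adrenal cortex is another site of Nr0b1. Of its 5 measured genes 0 were called in any comparison (limma), where 0% to 1.42% of all probe sets were. Their summed signal was 280.3 to 749.7 in Ihh_Dhh_dKO, against 342 to 1602 on controls 1 to 4. It was 560.2 to 1517 in Dhh_KO and 570.3 to 1144 in Ihh_KO, against 263 to 918 on controls 5 to 8. Its brightest gene was Mrap, an accessory protein of the ACTH receptor (160.3 to 1392 over the 19 arrays). The steroid enzyme Cyp11b1 read 0.710 to 315 and Cyp21a1 8.11 to 104, while Cyp11b2 (0.397 to 45.9) and the ACTH receptor Mc2r (0.452 to 18.8) were low. The part of adrenal tissue in the Nr0b1 readings was not tested.

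**Figure D3:**
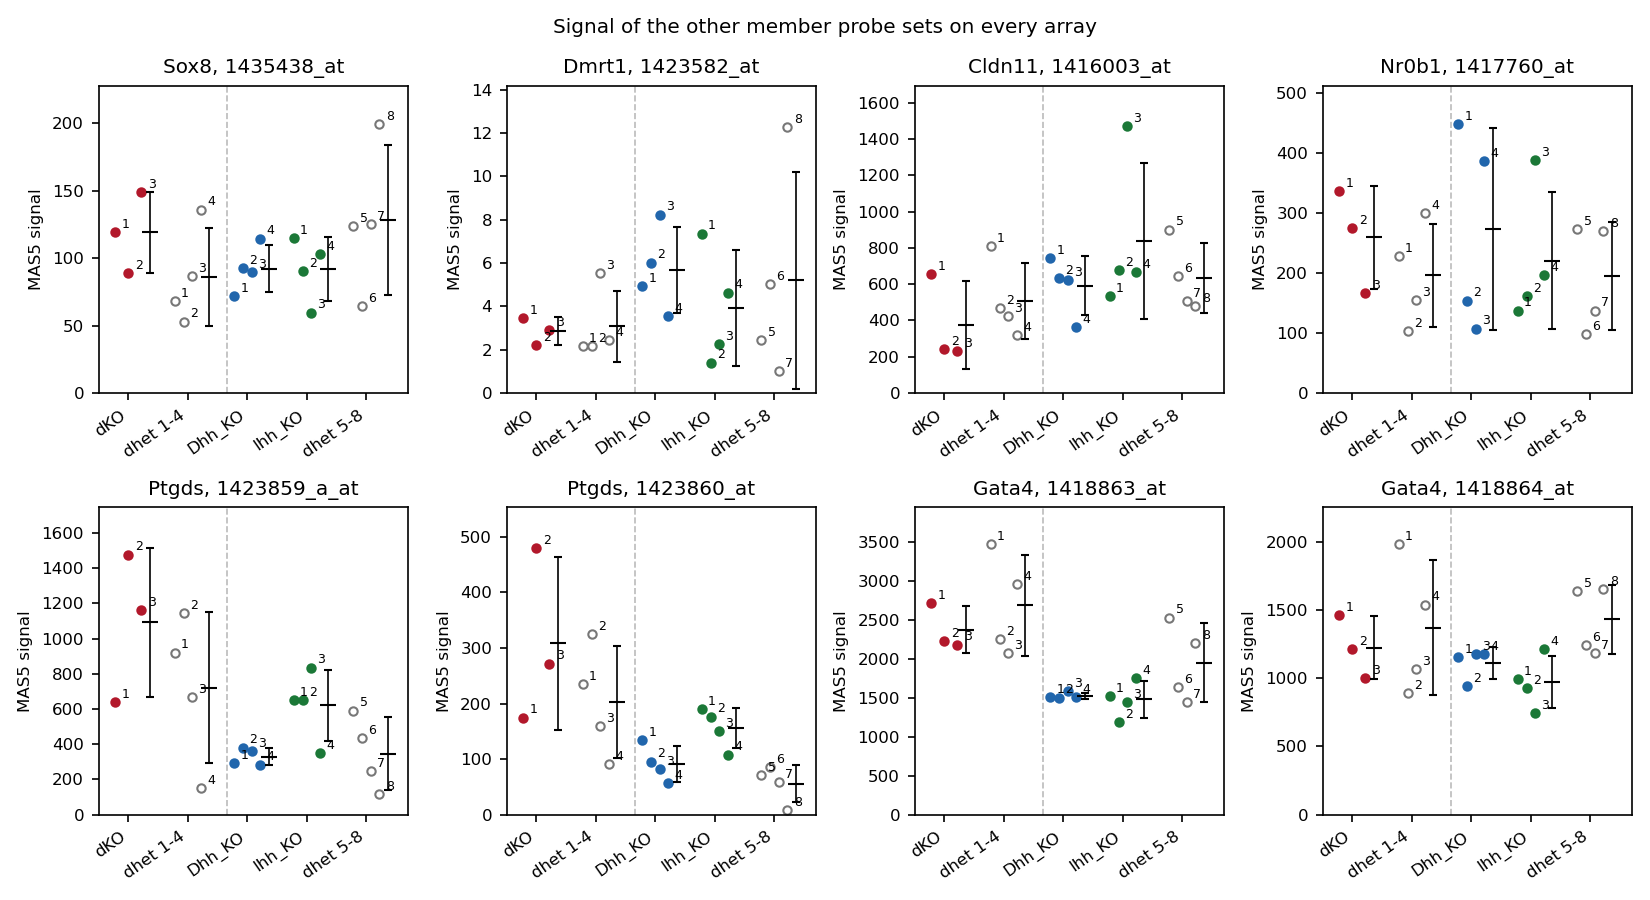
MAS5 signal (linear axis from 0) of the 8 probe sets of Sox8, Dmrt1, Cldn11, Nr0b1, Ptgds and Gata4 on each array, numbered by replicate, with group mean and SD as bars; dKO is Ihh_Dhh_dKO and dhet is Ihh_Dhh_dhet. Ptgds 1423860_at is above every one of controls 5 to 8 on all Ihh_KO arrays, while in the other panels Ihh_KO overlaps its controls.

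Over the 11 member probe sets, none passed the test in either single knockout. In Ihh_KO 0 of 11 were called, where 0.0687% of all probe sets were (24 of 34945, limma). Of the 11, 3 had an unadjusted limma p under 0.05, as did 5422 of the 34945. In Dhh_KO 0 of 11 were called, where 0% of all probe sets were. There 0 of the 11 had an unadjusted limma p under 0.05, against 3708 of the 34945. The direct comparison of Ihh_KO with Dhh_KO, which uses no control, called 0 of 11 and 0% of all probe sets. Before adjustment 0 of the 11 were below 0.05, against 3611 of the 34945. With the array labelled Ihh_KO 4 left out, Ihh_KO gave 106 calls and the direct comparison 26, none of them a member. In that fit Ihh_KO stood at -0.45 for Sox8 (limma adjusted p = 0.54), 0.40 for Cldn11 (0.65), 0.20 for Nr0b1 (0.87) and -0.29 for Sox9 1424950_at (0.70). In Dhh_KO 0 of 11 lay wholly above the controls (1.76% of all probe sets) and 1 of 11 wholly below (3.48%), 1 in either direction (5.24%). In Ihh_KO 1 of 11 lay wholly above (1.55% of all probe sets) and 0 wholly below (5.3%), 1 in either direction (6.85%). Calls there were higher for 0.00572% and lower for 0.063% of all probe sets. In Ihh_KO against Dhh_KO 0 of 11 lay wholly above (1.91% overall), below (3.57%) or either (5.49%). In Ihh_Dhh_dKO, where the members were chosen, 1.42% of all probe sets were called, 4.49% lay wholly below the controls, as did 0 of the 11, and 11.4% did not overlap in either direction, as did 1 of the 11. There 7 of the 11 lay higher and 4 lower, with a median log2 difference of 0.44, against 0.04 over all probe sets. In Ihh_KO 6 lay higher and 5 lower (median 0.05, against -0.09 over all probe sets), and in Dhh_KO 5 and 6 (median -0.10, against -0.05). Over all probe sets 56.3% lay higher in Ihh_Dhh_dKO, 37.4% in Ihh_KO and 41.1% in Dhh_KO.

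**Figure D4:**
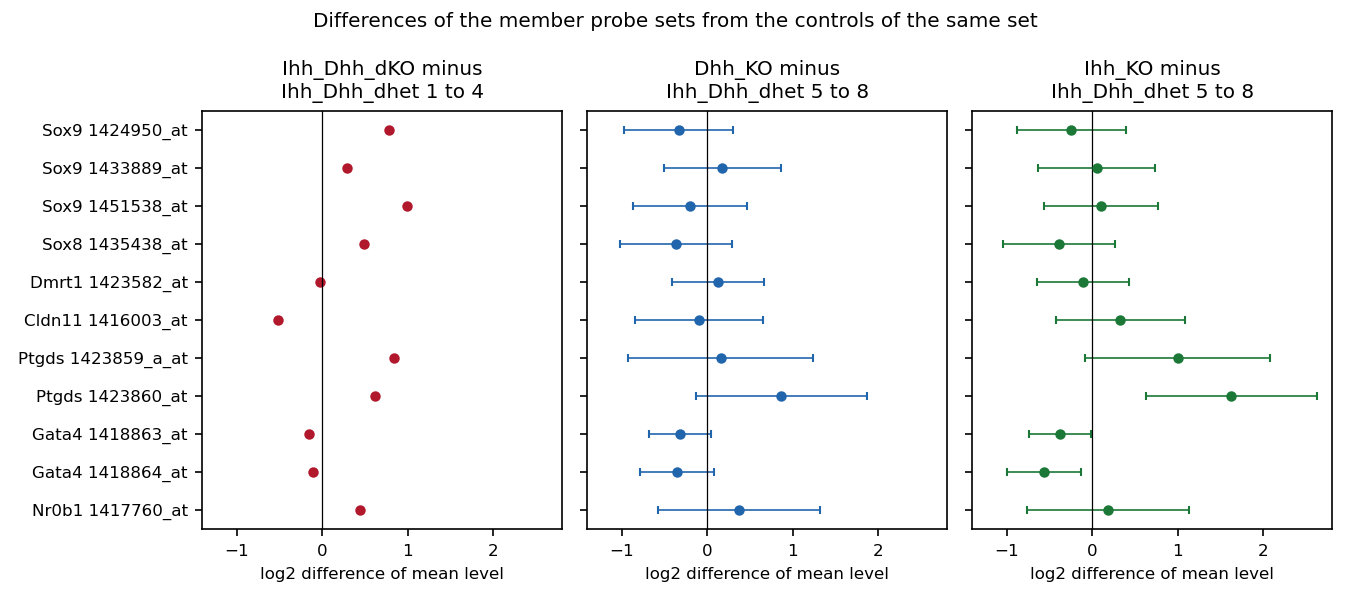
Log2 difference of each member probe set from the controls of its hybridization set (x axis, log2 of signal plus 7.02), with 95% intervals from limma for Dhh_KO and Ihh_KO; Ihh_Dhh_dKO has points only, since its Sox9 value was used in choosing the members. The Ptgds 1423860_at point in Ihh_KO, at 1.63, is farthest from 0, and those of Gata4 in Ihh_KO, at -0.38 and -0.56, are the other intervals that leave out 0.

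Among regulators that form the early gonad in both sexes, several changed in Ihh_Dhh_dKO. Of 9 measured genes, 3 rose and 1 fell (limma), where 0.727% of all probe sets were called higher and 0.693% lower, and the median log2 difference was 0.70. Gata6, the partner of Gata4, read 2533, 2448 and 2585 in Ihh_Dhh_dKO, against 1510, 1485, 1409 and 1448 on controls 1 to 4 (log2 difference 0.78, adjusted p = 0.0024). Wt1, which is needed for Sox9 and Nr5a1 activity and is also made by the ovarian surface epithelium, averaged 2111 ± 188 (SD, n = 3), against 1244 ± 196 (SD, n = 4; 0.77, adjusted p = 0.010). Emx2, a factor of the gonad and the Mullerian duct, averaged 1269.7 ± 74.5 (n = 3), against 778 ± 181 (n = 4; 0.73, adjusted p = 0.040). Tcf21, which marks gonadal stroma, averaged 1408 ± 269 (n = 3), against 2291 ± 323 (n = 4; -0.71, adjusted p = 0.021). The summed oviduct and surface epithelium signals given above were also higher on the Ihh_Dhh_dKO arrays, and the part of epithelium in Wt1 and Emx2 was not tested. Without Ihh_Dhh_dKO 3 only Gata6 was called, and without control 2 only Wt1 and Gata6. Nr5a1, the factor that Nr0b1 restrains, stood at -0.47 (adjusted p = 0.33), and Zfpm2, which binds GATA4, at 0.70 (adjusted p = 0.063). In Dhh_KO and in Ihh_KO 0 of 9 were called (limma), where 0% and 0.0687% of all probe sets were, with medians of -0.10 in each. On Ihh_KO 3 Wt1 read 2129, against 1201 to 1415 on controls 5 to 8, and on the other Ihh_KO arrays 1326 to 1737.

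Genes of a testis determination and Sertoli list, beyond the members, were not called in any comparison with all 19 arrays. Several are bright in these ovaries, with Clu at percentile 99.7, Vnn1 at 93.2 and Defb19 at 92.5 by mean level. Counts over this list therefore do not read Sertoli cells alone. Of 24 listed, 23 were measured and 0 were called in Ihh_Dhh_dKO, Dhh_KO, Ihh_KO or Ihh_KO against Dhh_KO (limma). Over all probe sets 1.42%, 0%, 0.0687% and 0% were called in these comparisons, so few or no calls would be found in any list of this length. In Ihh_Dhh_dKO 16 lay higher and 7 lower (median log2 difference 0.30). Over all probe sets 56.3% lay higher there (median 0.04). Amh, the hormone that removes the Mullerian ducts in males and is also a granulosa product, read 152, 185 and 244, against 214, 119, 122 and 177 on controls 1 to 4 (0.30, adjusted p = 0.82). Fgf9, which sustains Sox9 in the XY gonad, averaged 65.5 ± 10.4 (n = 3), against 45.1 ± 10.6 (n = 4; 0.49, adjusted p = 0.42). The lowest p of the list in this comparison, a choice made after the values were seen, belonged to Gdnf, Cst9 and Hpgds. Gdnf, the growth factor by which Sertoli cells maintain spermatogonial stem cells, read 135, 127 and 388 in Ihh_Dhh_dKO, against 58.4, 60.2, 113 and 108 on controls 1 to 4 (1.15, adjusted p = 0.13). All 3 mutant arrays lay above the controls, as did 6.87% of all probe sets. Cst9, a cystatin, read 36.9, 122 and 208, against 32.3, 34.5, 58.3 and 8.71 on controls 1 to 4 (1.57, adjusted p = 0.14). Hpgds, another maker of prostaglandin D2, which can raise SOX9 activity, stood at 1.07 (adjusted p = 0.18). In Dhh_KO 5 lay higher and 18 lower (median -0.11), and in Ihh_KO 9 and 14 (median -0.12). The medians over all probe sets were -0.05 in Dhh_KO and -0.09 in Ihh_KO, with 41.1% and 37.4% of probe sets higher.

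Without the array labelled Ihh_KO 4, Ihh_KO had 7 of the 23 genes of that list higher and 16 lower (median -0.22, against -0.10 over all probe sets). Of the 23, 1 fell, where 0.303% of all probe sets were called. It was Fgfr2, a receptor for FGF9, which read 1561, 1524 and 1402 on Ihh_KO 1 to 3, against 2407 to 3229 on controls 5 to 8 (log2 difference -0.82, limma adjusted p = 0.0094). The array labelled Ihh_KO 4 read 2604 and the Dhh_KO arrays 2192 to 2717, and with all 4 Ihh_KO arrays the difference was -0.62 (adjusted p = 0.094). Against Dhh_KO it was -0.70 without that array (adjusted p = 0.038, where 0.0744% of all probe sets were called; -0.50 and 0.36 with it). This count was added, and Fgfr2 named, after the values were seen. Of the gonad, ovarian fate, oviduct, surface epithelium, cartilage, glial, adrenal and oocyte lists, 0 genes were called in Ihh_KO without that array (limma).

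No gene of the ovarian fate list was called. Foxl2 averaged 4099 ± 296 (SD, n = 3) in Ihh_Dhh_dKO, against 3902 ± 387 (SD, n = 4) on controls 1 to 4 (log2 difference 0.07, limma adjusted p = 0.87). Rspo1, a secreted amplifier of WNT4 signalling, stood at 0.51 (adjusted p = 0.26) and Wnt4 itself at -0.38 (adjusted p = 0.74). Of 14 measured genes 0 were called in any of the 4 comparisons (limma). Over all probe sets 1.42% were called in Ihh_Dhh_dKO, 0.0687% in Ihh_KO and 0% in the other comparisons. The median log2 difference of the list in Ihh_Dhh_dKO was 0.09, against 0.04 over all probe sets. A p that misses the threshold here does not show that the levels of these genes were the same.

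**Figure D5:**
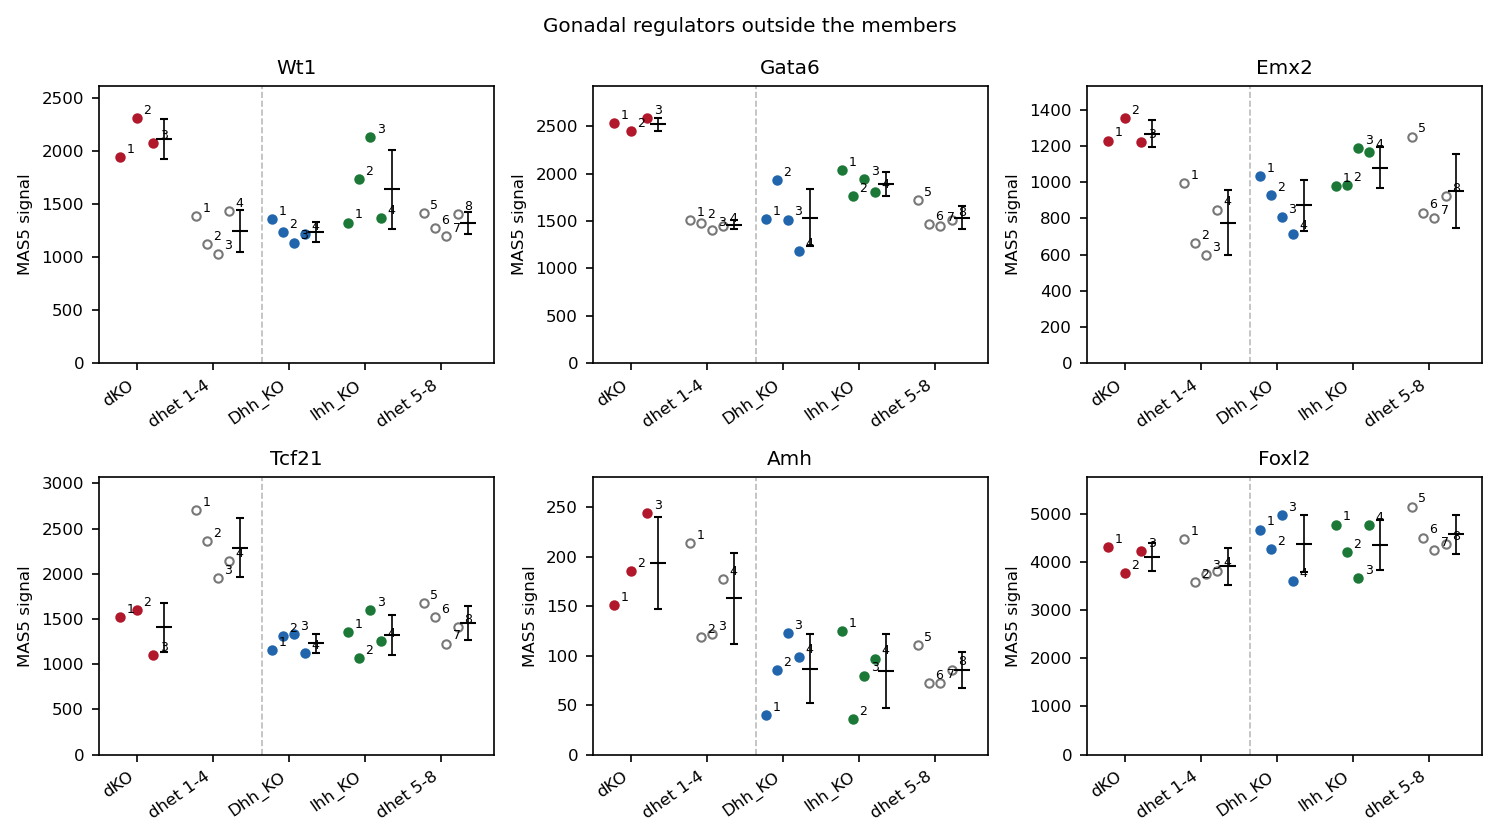
MAS5 signal (linear axis from 0) of 6 gonadal regulators outside the members on each array, numbered by replicate, with group mean and SD as bars; dKO is Ihh_Dhh_dKO and dhet is Ihh_Dhh_dhet. Gata6 and Wt1 are above controls 1 to 4 on all 3 dKO arrays and Tcf21 is below them, while Foxl2 and Amh overlap their controls.

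The genes whose levels ran closest to each member were found by Pearson's r over the 19 arrays, after subtraction of the mean of the controls of the same set. Controls that appear to share a source make these fewer than 19 independent points, and the values are a description. For Sox9 they were the glucose transporter gene Slc2a3 (r = 0.82; 0.93 within the 7 arrays of the first set and 0.61 within the 12 of the second), the carbonyl reductase gene Cbr2 (0.81; 0.96 and 0.45) and Arhgef4 (0.78; 0.77 and 0.74). For Sox8 they were Epha4 (0.94), Nup210 (0.94) and Npepl1 (0.91), for Nr0b1 Kank1 (0.90), Tcf7l2 (0.88) and Tmtc2 (0.86). Ptgds ran with Gxylt2 (0.87), Sla (0.86) and Lair1 (0.84), Cldn11 with Rhoj, Rell1 (0.84 each) and Acot1 (0.83), and Gata4 with Mapre2 (0.86), Ppara (0.85) and Plekha8 (0.84). The closest to Dmrt1, Ubap2l (0.81), Gins4 (0.75) and Hdac1 (0.68), follow a signal at background. No 2 members shared a gene in these lists. With only 3 genes a list out of 11885 or more, this cannot show whether members vary together.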

How the data were processed

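RNA was amplified and biotin-labelled, per the labels' protocols. The authors deposited a linear intensity for each probe set and array. Per the submitters' processing notes it is a MAS5 signal, of unstated version. Its trimmed mean (2% off each end) was 500.002 on all 19 arrays. Of 45101 probe sets, 34945 name 1 gene in the platform annotation supplied with the values and were tested without a filter on low signals (8 of the 11 member probe sets lie at or above the 40th percentile). Before log2 a pseudocount of 7.02 was added (10th percentile of the table), and fold changes on this scale understate those of dim probe sets. A model of 5 means (3 mutant groups, controls 1 to 4, controls 5 to 8) was fitted in R 4.3.3 with limma 3.58.1 (lmFit, eBayes with intensity trend, two-sided, Benjamini-Hochberg over all 34945, threshold 0.05). It was checked on simulated data, where 68% to 86% of added log2 changes of 1 were called, by comparison. Those data had independent arrays, with no set differences and no controls of shared source, so the check does not cover these. There were 4 comparisons. Lists were read as counts and medians, on the brightest probe set of each gene. Members, lists and tests were chosen with earlier results of these data known. Named genes were all member probe sets, Dhh, Ihh, up to 3 called genes of a list in a comparison, the 3 brightest genes of cell type lists and the 3 genes most like each member; others were named after their values were seen. Same-numbered Ihh_Dhh_dKO and control arrays deviated together at 0.0521 to 0.110, against -0.103 to 0.0543 for other numbers. For Ihh_KO and Dhh_KO arrays these ranges were -0.111 to 0.0967 and -0.263 to 0.172. Same-numbered arrays were not treated as pairs, and whether they are pairs was not settled. The number of arrays limits the precision. Figures used matplotlib 3.10.9.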

Additional observations from a re-analysis of the deposited data

Results flagged for a closer look

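Among the members, 4 arrays stood apart from the other 3 of their group of 4, of 44 such groups read, where chance gives about 1 in 20. Cldn11 was 1471 on Ihh_KO 3, against 533 to 679 on the other Ihh_KO arrays. Gata4 was 1585 on Dhh_KO 3 by 1418863_at, against 1503 to 1515 on the others, and 941 on Dhh_KO 2 by 1418864_at, against 1157 to 1178. Dmrt1 was 5.54 on control 3, against 2.17 to 2.44 on controls 1, 2 and 4, all at background.

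In 3 cases every array of 1 mutant group lay above the mean of its controls and every array of another lay below. Sox9 by 1424950_at had a log2 difference of 0.78 in Ihh_Dhh_dKO and -0.24 in Ihh_KO, 1.03 apart. Sox8 had 0.49 in Ihh_Dhh_dKO against -0.36 in Dhh_KO, 0.85 apart, and against -0.39 in Ihh_KO, 0.87 apart. These differences between comparisons were not tested, and the mutant groups lie in different hybridization sets.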

How the results depend on the processing

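No member probe set passed the test in a single knockout under any alternative run. The count over all probe sets in Ihh_KO, 24, was 5 with median centring, 167 with a pseudocount at the 25th percentile, 13 with none, 8 and 0 with filters at the 40th and 60th percentiles, 7 with 1 probe set a gene, 6 with matched controls as a random block, 168 without a trend, 0 on the arrays of the comparison alone, 5 against all 8 controls and 106 without the array labelled Ihh_KO 4. Leaving out 1 array at a time gave 0 (without control 5) to 926 (without control 8). In Ihh_Dhh_dKO the count of 496 was 87 on its own arrays alone, 886 against all 8 controls, and 154 (without Ihh_Dhh_dKO 3) to 653 (without control 4) with 1 array left out. In Dhh_KO the count of 0 was 1 on its own arrays, 4 against all 8 controls, 1 without the array labelled Ihh_KO 4, and 0 to 58 (without control 8) with 1 array left out. In Ihh_KO against Dhh_KO it was 26 without the array labelled Ihh_KO 4, and 0 to 26 with 1 array left out. Same-numbered arrays were not treated as pairs in the main fit, and whether they are pairs was not settled. With a replicate block Ihh_Dhh_dKO gave 262 calls and Ihh_KO against Dhh_KO 0. The cause of these shifts was not tested.

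Several small uncalled differences changed sign. The signs of Dmrt1 and Sox9 1433889_at, which read near background, carry no meaning. In Ihh_KO, Dmrt1 was 0.03 with quantile normalization and 0.04 with median centring. In Ihh_KO against Dhh_KO, Sox9 1433889_at was 0.06, 0.01 and, without a pseudocount, 0, Sox8 was 0.16 and 0.12, and Gata4 1418863_at was 0.08 with median centring. Against all 8 controls, Dhh_KO had Cldn11 at 0.08 and Ptgds at -0.32 (1423859_a_at) and -0.07 (1423860_at), and Ihh_KO had Sox9 at 0.09 (1424950_at), -0.05 (1433889_at) and -0.17 (1451538_at). Without the array labelled Ihh_KO 4, Sox9 1451538_at was -0.03 in Ihh_KO. With 1 array left out, Dhh_KO ranged from -0.12 to 0.47 for Sox9 1433889_at, -0.43 to 0.06 for 1451538_at, -0.05 to 0.37 for Dmrt1, -0.22 to 0.12 for Cldn11 and -0.28 to 0.49 for Ptgds 1423859_a_at. Ihh_KO ranged from -0.11 to 0.35 for Sox9 1433889_at, -0.04 to 0.26 for 1451538_at, -0.28 to 0.14 for Dmrt1 and -0.12 to 0.38 for Nr0b1. Ihh_KO against Dhh_KO ranged from -0.04 to 0.33 for Sox9 1424950_at, -0.39 to 0.18 for 1433889_at, -0.13 to 0.16 for Sox8, -0.15 to 0.04 for Gata4 1418863_at and -0.54 to 0.12 for Nr0b1. In Ihh_Dhh_dKO, Gata4 1418863_at was 0.08 against all 8 controls, Gata4 1418864_at 0.09 without control 1 and 0.03 without Ihh_Dhh_dKO 3, and Dmrt1 0.09 without control 3 and 0.03 without Ihh_Dhh_dKO 2.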
